A study of Mus musculus with 90 samples.

Results

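Livers without the glucocorticoid receptor (GR) in hepatocytes were compared with WT livers at zeitgeber time 20 (ZT20), in the dark phase, on the control diet. The libraries were chosen by their titles, which give diet, time and genotype, and comprise 3 GR LKO and 4 WT livers, 7 of the 90 libraries of the series. The series asked how liver GR takes part in the response to caloric restriction, and profiled WT and GR LKO livers by bulk RNA-seq every 4 h over the day on either diet. Bulk RNA-seq counts the transcripts of a whole piece of liver, so hepatocytes and all other liver cells add to each value. All mice of the ZT20 groups were C57BL/6J males on chow, 12 weeks old when the 8-week feeding protocol began and housed singly. GR LKO mice were homozygous for a floxed GR gene (*Nr3c1*, GRfl/fl) and carried Cre under the albumin promoter (Alb-Cre), which is active in hepatocytes. The WT controls had the same floxed alleles (GRfl/fl) without Cre, so an effect of Cre itself and of GR loss cannot be told apart. Control-diet mice ate ad libitum until the last 7 days, when food was given at lights off (ZT12) and only at night (night-restricted feeding, NRF). Caloric restriction, used below as another diet at ZT20, ended at 40% fewer calories, also given at ZT12, with mice of the same strain, genotypes and age.

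GR is a nuclear receptor that binds glucocorticoids in the cytosol, moves to the nucleus and raises or lowers the transcription of genes near its binding sites. In liver it is known for driving enzymes of glucose production and amino acid breakdown, and it works there with STAT5, the transcription factor downstream of growth hormone. In night-active rodents corticosterone peaks around lights off and falls through the night, so that ZT20 lies on the falling side of the daily hormone curve.

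The 7 libraries held 10057544 to 15292260 estimated counts, with a median of 13155812 in WT and 11580988 in GR LKO livers. Levels are given in CPM, a share of the counts of the library on the usual CPM scale, with library sizes adjusted by the trimmed mean of M-values (TMM). They are not corrected for transcript length, so ranks between different genes are rough. GR LKO replicate 1 stood apart from the other libraries. Its TMM factor was 1.15, against 0.940 to 1.00 in the others. Its counts differed from those of GR LKO replicates 2 and 3 with a chi-square per degree of freedom of 77.4 and 68.2, while the other pairs within a genotype lay between 12.3 and 35.2. Values without this library are given beside the main results below.

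The libraries carried the markers of liver. The 9 hepatocyte markers summed to 98466 to 126043 CPM in WT and 96293 to 116058 CPM in GR LKO livers, with *Alb* the most abundant, and all 9 were tested. By edgeR none of them passed the test, 0 were higher and 3 lower at an unadjusted p under 0.05, and DESeq2 called 1 lower. Markers of Kupffer cells and macrophages (132 to 277 CPM in WT and 163 to 191 CPM in GR LKO livers, most abundant *Clec4f*), endothelial cells (182 to 224 CPM in WT and 188 to 222 CPM in GR LKO livers, *Ptprb*) and erythrocytes (385 to 874 CPM in WT and 408 to 821 CPM in GR LKO livers, *Hbb-bs*) overlapped between the genotypes. Neutrophil markers stayed at or below 3.24 CPM in sum (*S100a9*, with *Ly6g* at 0 in all 7 libraries), lymphocyte markers at or below 11.9 CPM (*Cd79a*) and exocrine pancreas markers at or below 2.43 CPM (*Cela2a*, with 7 of its 12 markers at 0). The 9 stellate cell markers summed to 265, 292, 212 and 335 CPM in WT and 511, 283 and 214 CPM in GR LKO livers, led by *Dcn*. The 7 cholangiocyte markers, led by *Spp1* and with *Epcam* at 0 in every library, summed to 57.7, 39.4, 59.8 and 87.3 CPM in WT and 155, 64.3 and 39.9 CPM in GR LKO livers. For both sums GR LKO replicate 1 was the highest library while the other GR LKO livers lay within or close to the WT range. Fewer cells of a type and less RNA per cell cannot be told apart in bulk tissue. Leaving aside the hepatocyte markers above and the adipocyte markers, described with the lipid genes, edgeR called no marker of these lists. At an unadjusted p under 0.05 1 of them, an erythrocyte marker, was higher, and DESeq2 called 1 erythrocyte marker higher. A 0 in the deposited table does not show that a cell type was absent: *Gpam* and *Pck2*, usually abundant in liver, also stand at 0 in most control-diet libraries.

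Genotype changed 50 of the 11906 genes tested (0.42%) at an adjusted p under 0.05 (edgeR quasi-likelihood test, Benjamini-Hochberg). Of these, 27 were higher (0.227% of the genes tested) and 23 lower (0.193%) in GR LKO livers. Among the 8818 genes with a WT mean of at least 5 CPM, 15 were called higher and 23 lower. That limit was set after seeing the data and on WT livers alone, so it leaves out rises from near 0 but not falls to near 0. The balance of rises and falls thus depends on genes low in WT livers. At an unadjusted p under 0.05 there were 1346 of all genes tested (11.3%), 666 higher and 680 lower, and the median log2 fold change of all genes was 0.01. The values of the 2 genotypes did not overlap for any of the 50 genes, and did not overlap for 1411 of all genes tested (11.9%). DESeq2 called 297 genes, all 50 among them, and 1 fit over the 42 control-diet libraries called 387, with 43 of the 50. The count rested on single livers: it was 17, 12, 32 and 23 without WT replicates 1, 2, 3 and 4, and 13 and 23 without GR LKO replicates 2 and 3. Without GR LKO replicate 1 it was 48, of which 31 were among the 50. Of the 50 genes, 12 belonged to one of the 25 gene lists described below and 38 to none. The lists and their members were chosen with earlier results of these data known. Their counts and medians are therefore descriptions and not independent support. With 0.42% of all genes called, lists of 16 to 79 tested genes would often hold no called gene, so a 0 below says little about a list. Beside 11.3% of all genes, an unadjusted p under 0.05 was found in 2.78% of interferon-stimulated, 9.68% of cholesterol and 12.5% of glycogen genes. It was found in 13.9% of unfolded protein and 17.4% of core clock genes. The share was 27.3% for drug metabolism and fatty acid oxidation, 29.1% for acute phase and 36.6% for male-biased genes. For fatty acid synthesis and pericentral genes it was 41.7%. DESeq2 counts below stand beside its 297 calls over all genes.

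**Figure D1:**
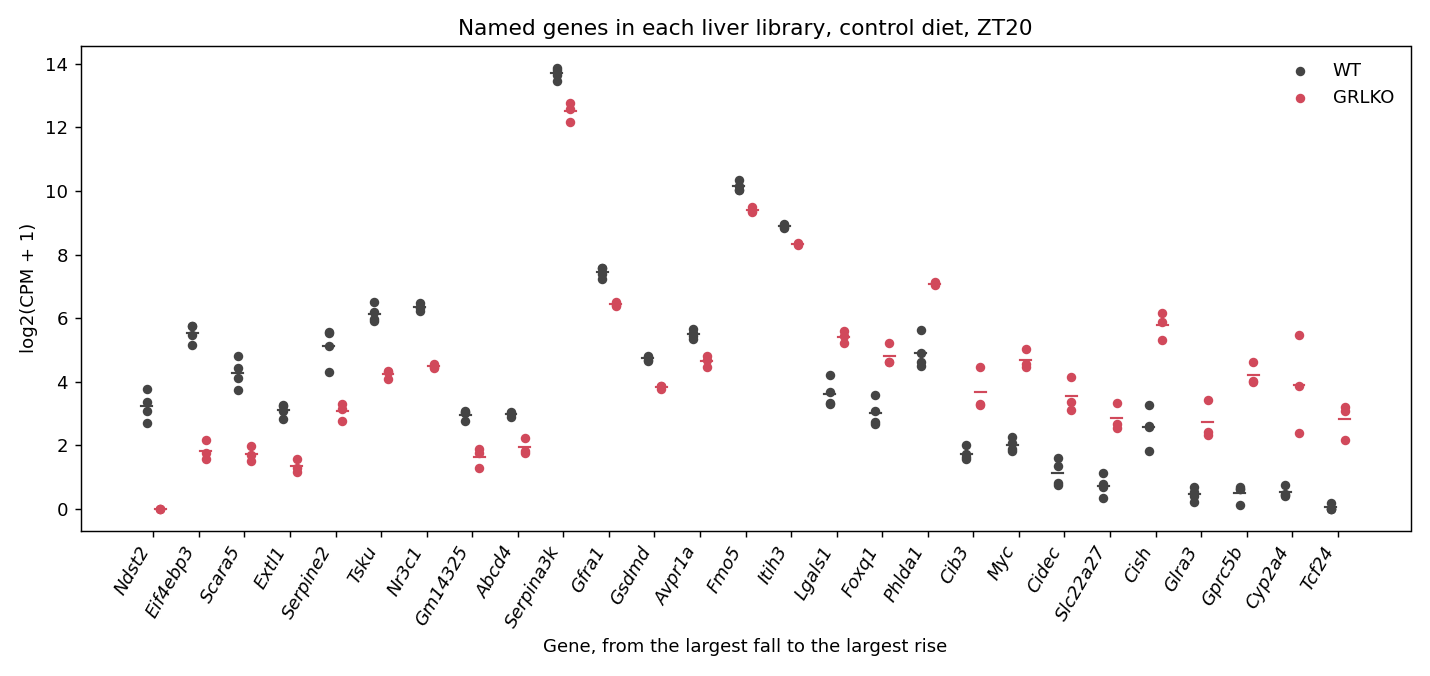
Levels of the 27 named genes that passed the test, as log2(CPM + 1), in each WT (grey) and GR LKO (red) liver at ZT20 on control diet, ordered from the largest fall to the largest rise. Each point is 1 library and the short lines are group means; the livers of the genotypes do not overlap for any gene, and *Nr3c1* lies at 78.1, 87.1, 79.9 and 73.9 CPM in WT and 21.1, 20.5 and 22.5 CPM in GR LKO livers.

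The targeted gene came first. *Nr3c1* (ENSMUSG00000024431) had 78.1, 87.1, 79.9 and 73.9 CPM in the WT livers and 21.1, 20.5 and 22.5 CPM in the GR LKO livers. Every GR LKO liver lay below every WT liver, with little spread in either group, as the labels give. *Nr3c1* passed the test (log2 fold change -1.89, standard error 0.08, adjusted p = 0.000153, edgeR quasi-likelihood test, Benjamini-Hochberg). The fold change lay between -1.93 and -1.85 with each library left out. Exons outside the floxed part and cells other than hepatocytes may still add counts to the gene, which was not tested. Of the other 26 tested genes of the receptor and of hormone handling, edgeR called none, and 2 were higher and 1 lower at an unadjusted p under 0.05, while DESeq2 called 1 higher besides *Nr3c1*. The list's median log2 fold change was -0.04 (-0.01 without GR LKO replicate 1). *Serpina6*, which encodes the corticosteroid-binding globulin of plasma and was singled out after its values were seen, had 106, 118, 175 and 137 CPM in the WT livers and 307, 271 and 252 CPM in the GR LKO livers. All GR LKO livers were above all WT livers, but the difference missed the threshold (log2 fold change 1.05, standard error 0.17, adjusted p = 0.0585, edgeR quasi-likelihood test, Benjamini-Hochberg).

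Classical GR targets are genes known to be induced by glucocorticoids in many tissues. Among 37 tested, edgeR called 0, beside 0.42% of all genes, a share at which a list of this size would rarely hold a called gene. At an unadjusted p under 0.05 0 were higher and 11 lower (29.7% of the list, against 11.3% of all genes), and DESeq2 called 5 lower. Their median log2 fold change was -0.20, and -0.36 without GR LKO replicate 1, beside 0.01 over all genes. *Fkbp5*, a co-chaperone that lowers the hormone affinity of GR, had 16.4, 16.6, 15.2 and 24.8 CPM in the WT livers and 12.8, 9.51 and 12.2 CPM in the GR LKO livers. WT replicate 4 was above the other WT livers, and the genotypes did not overlap. *Tsc22d3* (GILZ), a leucine zipper protein that mediates anti-inflammatory glucocorticoid effects, had 165, 115, 114 and 176 CPM in the WT livers and 50.8, 92.1 and 69.8 CPM in the GR LKO livers, again without overlap. The clock gene *Per1* had 24.1, 12.1, 11.5 and 38.1 CPM in the WT livers and 11.1, 7.18 and 8.35 CPM in the GR LKO livers; WT replicates 1 and 4 were high and WT replicates 2 and 3 close to the GR LKO livers. Their log2 fold changes were -0.65, -1.004 and -1.25 (adjusted p = 0.276, 0.166 and 0.344, edgeR quasi-likelihood test, Benjamini-Hochberg). On other libraries the same list held 9 called lower of 38 at ZT16 (median -0.64), where 1.98% of all genes were called. At ZT12 it held 12 lower of 36 (median -0.73; 2.08% of all genes), and at ZT20 under caloric restriction 2 higher and 2 lower of 37 (median -0.52; 1.47% of all genes). Whether the list differed between times or diets was not tested.

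The gene with the smallest adjusted p after *Nr3c1* was *Eif4ebp3*, a 4E-binding protein that holds back cap-dependent translation. It had 52.9, 52.3, 34.6 and 43.2 CPM in the WT livers and 2.36, 3.44 and 1.95 CPM in the GR LKO livers. The gene was low in every GR LKO liver and high in every WT liver (log2 fold change -4.15, standard error 0.23, adjusted p = 0.000760, edgeR quasi-likelihood test, Benjamini-Hochberg). It was the called member of the insulin and FoxO signaling list, in which edgeR called 0 of 42 genes higher and 1 lower, DESeq2 called 1 higher and 3 lower, 2 were higher and 7 lower at an unadjusted p under 0.05, and the median log2 fold change was 0.00 (-0.03 without GR LKO replicate 1). *Scara5* (chr14:65666403-65764826, RefSeq, GRCm38.p6), a scavenger receptor that takes up ferritin, had 12.2, 20.6, 16.1 and 26.8 CPM in the WT livers and 2.23, 1.82 and 2.93 CPM in the GR LKO livers. Its GR LKO values were all under those of the WT livers (log2 fold change -3.01, standard error 0.32, adjusted p = 0.0119, edgeR quasi-likelihood test, Benjamini-Hochberg). *Scara5* was the called member of the metallothionein, zinc and iron list (28 tested, 0 called higher and 1 lower by edgeR, 2 and 2 by DESeq2, 5 and 4 at an unadjusted p under 0.05, median -0.02, and -0.11 without GR LKO replicate 1). *Tsku* (chr7:98350668-98361390), a secreted leucine-rich protein made by liver, had 89.5, 59.6, 61.0 and 71.2 CPM in the WT livers and 15.9, 19.1 and 18.6 CPM in the GR LKO livers. Both groups were tight and did not overlap (log2 fold change -1.98, standard error 0.16, adjusted p = 0.00546, edgeR quasi-likelihood test, Benjamini-Hochberg). Leaving out 1 library ended the call of *Scara5* (WT replicate 2, GR LKO replicate 2), where the edgeR quasi-likelihood test (Benjamini-Hochberg) gave adjusted p between 0.0529 and 0.0772. *Eif4ebp3* kept its call with each library left out.

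Other genes that fell have various roles, and no theme was tested among them. *Extl1*, an exostosin-like glycosyltransferase of heparan sulfate synthesis, had 8.43, 8.61, 7.43 and 6.11 CPM in the WT livers and 1.22, 1.42 and 1.95 CPM in the GR LKO livers, low in each GR LKO liver (log2 fold change -2.32, standard error 0.23, adjusted p = 0.0119, edgeR quasi-likelihood test, Benjamini-Hochberg). *Ndst2*, which N-sulfates heparan sulfate, had 9.33, 12.6, 5.50 and 7.36 CPM in the WT livers and 0, 0 and 0 CPM in the GR LKO livers. With 464 counts over the WT livers and 0 over the GR LKO livers, it was at least 33.7-fold lower, taking 3 counts per library as the floor. That floor covers counting error only, and *Ndst2* was also at 0 in 22 of the 71 other libraries of the time series, WT livers included, so its estimate switches between 0 and a few CPM in both genotypes. Its fitted log2 fold change was -9.78, and its interaction with diet was -18.6 (adjusted p = 0.279, edgeR quasi-likelihood test, Benjamini-Hochberg). The fitted direction was thus the opposite under caloric restriction, and the interaction missed the threshold. *Serpine2*, a secreted serine protease inhibitor, had 46.1, 33.6, 18.9 and 45.3 CPM in the WT livers and 5.74, 7.69 and 8.88 CPM in the GR LKO livers, where WT replicate 3 was the lowest WT liver and still above all GR LKO livers (log2 fold change -2.28, standard error 0.33, adjusted p = 0.0414, edgeR quasi-likelihood test, Benjamini-Hochberg). *Gfra1*, a co-receptor for the neurotrophic factor GDNF, had 189, 188, 166 and 149 CPM in the WT livers and 84.7, 82.2 and 90.6 CPM in the GR LKO livers. The GR LKO livers were all below the lowest WT liver (log2 fold change -1.005, standard error 0.10, adjusted p = 0.0119, edgeR quasi-likelihood test, Benjamini-Hochberg). *Gsdmd*, which forms the membrane pores of pyroptosis, had 26.5, 26.6, 24.7 and 24.2 CPM in the WT livers and 13.6, 13.5 and 12.7 CPM in the GR LKO livers, with little spread in either group (log2 fold change -0.94, standard error 0.08, adjusted p = 0.00565, edgeR quasi-likelihood test, Benjamini-Hochberg). Leaving out 1 library ended the call of *Extl1* (WT replicate 2, GR LKO replicate 2), *Ndst2* (WT replicate 1), *Serpine2* (WT replicates 1, 2 and 4, GR LKO replicates 1, 2 and 3) and *Gfra1* (GR LKO replicate 2), where the edgeR quasi-likelihood test (Benjamini-Hochberg) gave adjusted p between 0.0520 and 0.148. *Ndst2* was also not called in the fit over the 42 control-diet libraries (adjusted p = 0.0978, edgeR quasi-likelihood test, Benjamini-Hochberg).

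*Abcd4*, a lysosomal transporter needed for the use of vitamin B12, and the predicted gene *Gm14325* were low in abundance and lower in all GR LKO livers. *Abcd4* had 7.04, 6.90, 7.28 and 6.44 CPM in the WT livers and 2.36, 3.64 and 2.49 CPM in the GR LKO livers (log2 fold change -1.29). *Gm14325* had 6.96, 7.17, 7.35 and 5.69 CPM in the WT livers and 1.42, 2.33 and 2.67 CPM in the GR LKO livers (log2 fold change -1.67). *Avpr1a*, the vasopressin receptor of hepatocytes, had 49.0, 39.8, 42.2 and 45.6 CPM in the WT livers and 21.2, 24.4 and 26.9 CPM in the GR LKO livers without overlap (log2 fold change -0.87, standard error 0.11, adjusted p = 0.0265, edgeR quasi-likelihood test, Benjamini-Hochberg). It was the called member of the clock and feeding output list, with 0 of 34 called higher and 1 lower by edgeR, 2 and 3 by DESeq2, 2 and 4 at an unadjusted p under 0.05, and a median of -0.10 (-0.07 without GR LKO replicate 1). Without 1 library the test was missed by *Abcd4* (WT replicates 1, 2, 3 and 4, GR LKO replicates 1, 2 and 3), *Gm14325* (WT replicates 1, 2, 3 and 4, GR LKO replicates 2 and 3) and *Avpr1a* (WT replicates 1, 2, 3 and 4, GR LKO replicates 2 and 3), where the edgeR quasi-likelihood test (Benjamini-Hochberg) gave adjusted p between 0.0503 and 0.137. Adjusted p with all libraries was 0.0455 for *Abcd4* and 0.0412 for *Gm14325* (edgeR quasi-likelihood test, Benjamini-Hochberg). The threshold was also missed by *Abcd4* with no low-count filter (adjusted p = 0.0505) and by *Gm14325* in the fit over the 42 control-diet libraries (adjusted p = 0.307, edgeR quasi-likelihood test, Benjamini-Hochberg).

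Among the rises, *Cish* (chr9:107296659-107302784) stood on the growth hormone axis: it encodes a SOCS-family protein that growth hormone induces through STAT5 and that damps the same signal. It had 2.54, 8.48, 5.11 and 4.94 CPM in the WT livers and 57.1, 38.8 and 70.9 CPM in the GR LKO livers. All GR LKO livers were far above all WT livers (log2 fold change 3.39, standard error 0.35, adjusted p = 0.0119, edgeR quasi-likelihood test, Benjamini-Hochberg), and the call held with each library left out, though not in the fit over the 42 control-diet libraries, where adjusted p was 0.0621. Of the 23 genes of the growth hormone and IGF1 axis tested, 1 was called higher and 0 lower, 4 were higher and 3 lower at an unadjusted p under 0.05, DESeq2 called 4 higher and 1 lower, and the median log2 fold change was 0.02 (-0.07 without GR LKO replicate 1). *Socs2*, a relative of *Cish* singled out after its values were seen, had 4.09, 10.2, 7.20 and 13.1 CPM in the WT livers and 35.2, 10.5 and 43.7 CPM in the GR LKO livers. GR LKO replicate 2 was within the WT range, and the difference missed the threshold (log2 fold change 1.79, adjusted p = 0.234, edgeR quasi-likelihood test, Benjamini-Hochberg). The growth hormone receptor *Ghr* had 555, 625, 598 and 573 CPM in the WT livers and 483, 703 and 627 CPM in the GR LKO livers, overlapping between genotypes (log2 fold change 0.04).

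*Myc* (chr15:61985341-61990361), a transcription factor of growth and proliferation, had 3.19, 2.50, 2.63 and 3.77 CPM in the WT livers and 31.6, 22.4 and 20.8 CPM in the GR LKO livers. WT livers held little of it and the GR LKO livers did not overlap with them (log2 fold change 3.05, standard error 0.21, adjusted p = 0.00207, edgeR quasi-likelihood test, Benjamini-Hochberg). It kept its call with each library left out and was the called member of the growth arrest and cell cycle list (35 tested, 1 higher and 0 lower by edgeR, 4 and 0 by DESeq2, 6 and 0 at an unadjusted p under 0.05). The median of that list was 0.36, and -0.02 without GR LKO replicate 1: the list medians of the 3 GR LKO libraries were 0.86, 0.00 and 0.01. Among the WT livers, replicate 4 stood apart in several members. *Mki67* was at 7.28 CPM there against 0.491 to 0.789 in the other WT livers, and *Mcm6* at 25.2 against 2.13 to 2.94. *Phlda1*, a pleckstrin homology-like protein induced by growth factors, had 47.8, 28.7, 23.3 and 21.6 CPM in the WT livers and 135, 139 and 130.4 CPM in the GR LKO livers; WT replicate 1 was the highest WT liver, still below all GR LKO livers (log2 fold change 2.16, standard error 0.25, adjusted p = 0.0239, edgeR quasi-likelihood test, Benjamini-Hochberg). *Foxq1*, a forkhead transcription factor, had 10.9, 7.36, 5.57 and 5.27 CPM in the WT livers and 36.5, 23.3 and 23.5 CPM in the GR LKO livers. The GR LKO livers again were all above the WT livers (log2 fold change 1.94, standard error 0.28, adjusted p = 0.0412, edgeR quasi-likelihood test, Benjamini-Hochberg). Leaving out 1 library ended the call of *Phlda1* (WT replicates 2 and 3, GR LKO replicates 2 and 3) and *Foxq1* (WT replicates 2, 3 and 4, GR LKO replicates 1, 2 and 3), where the edgeR quasi-likelihood test (Benjamini-Hochberg) gave adjusted p between 0.0505 and 0.114. In the fit over the 42 control-diet libraries *Foxq1* was not called either (adjusted p = 0.0954, edgeR quasi-likelihood test, Benjamini-Hochberg).

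Several rising genes were close to 0 in WT liver, where the count filter passes a gene only through its GR LKO counts. *Gprc5b* (chr7:118972040-118995211), an orphan G protein-coupled receptor, had 0.0819, 0.526, 0.542 and 0.586 CPM in the WT livers and 23.3, 14.9 and 15.02 CPM in the GR LKO livers (log2 fold change 5.32, standard error 0.39, adjusted p = 0.00279, edgeR quasi-likelihood test, Benjamini-Hochberg). WT replicate 1 was the lowest, and every GR LKO liver was far above the WT livers. *Tcf24*, a basic helix-loop-helix factor, held 2 counts over the 4 WT libraries and 238 over the 3 GR LKO libraries, a ratio of 173 after scaling (95% counting interval 47.4 to 1437). In CPM it had 0, 0.132, 0 and 0 CPM in the WT livers and 8.17, 3.44 and 7.37 CPM in the GR LKO livers, and it passed the test (adjusted p = 0.0119, edgeR quasi-likelihood test, Benjamini-Hochberg). WT replicate 2 held both WT counts. *Glra3*, a glycine receptor subunit, had 0.164, 0.592, 0.310 and 0.418 CPM in the WT livers and 9.65, 4.35 and 4.00 CPM in the GR LKO livers, highest in GR LKO replicate 1 (log2 fold change 3.97, standard error 0.48, adjusted p = 0.0249, edgeR quasi-likelihood test, Benjamini-Hochberg). *Cib3*, a calcium-binding protein, had 2.05, 2.96, 1.94 and 2.26 CPM in the WT livers and 20.9, 8.70 and 8.53 CPM in the GR LKO livers, with GR LKO replicate 1 again the highest (log2 fold change 2.47, standard error 0.36, adjusted p = 0.0412, edgeR quasi-likelihood test, Benjamini-Hochberg). Without that library the log2 fold changes of *Glra3* and *Cib3* were 3.43 and 1.89. *Lgals1*, the secreted lectin galectin-1, had 8.76, 17.5, 11.8 and 8.95 CPM in the WT livers and 35.7, 47.3 and 41.8 CPM in the GR LKO livers and no overlap (log2 fold change 1.82, standard error 0.24, adjusted p = 0.0335, edgeR quasi-likelihood test, Benjamini-Hochberg). Dropping 1 library ended the call of *Tcf24* (WT replicate 2), *Glra3* (WT replicates 1, 2, 3 and 4, GR LKO replicate 2), *Cib3* (WT replicates 1, 2, 3 and 4, GR LKO replicates 2 and 3) and *Lgals1* (WT replicates 1, 3 and 4, GR LKO replicates 2 and 3), where the edgeR quasi-likelihood test (Benjamini-Hochberg) gave adjusted p between 0.0621 and 0.120.

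Genes that female mouse liver expresses more than male liver, and that the male pulse pattern of growth hormone normally keeps low, were followed as a list, with no test of the list as a whole. Of the 45 listed genes with values, 26 were tested. The count filter passes a gene near 0 in WT livers only where GR LKO livers hold enough counts, which favours upward values in this list. Of the 26, 2 were called higher and 0 lower, 16 were higher and 1 lower at an unadjusted p under 0.05, and the median log2 fold change was 1.11 beside 0.01 over all genes. DESeq2 called 12 higher. Without GR LKO replicate 1 the median was 0.83. Among the 10 members with a WT mean of at least 5 CPM, a limit set after seeing the data and on WT livers alone, edgeR called 0, and 4 were higher and 1 lower at an unadjusted p under 0.05. Their median was 0.28, beside -0.01 over all genes with such a WT mean. *Cyp2a4*, a steroid hydroxylase, had 0.327, 0.329, 0.387 and 0.669 CPM in the WT livers and 43.3, 13.5 and 4.18 CPM in the GR LKO livers. It was near 0 in WT livers and differed among the GR LKO livers, highest in GR LKO replicate 1 (log2 fold change 5.58, standard error 0.84, adjusted p = 0.0455, edgeR quasi-likelihood test, Benjamini-Hochberg). Without that library its log2 fold change was 4.34. *Slc22a27*, an organic anion transporter, had 0.246, 0.723, 1.16 and 0.586 CPM in the WT livers and 9.11, 5.36 and 4.80 CPM in the GR LKO livers, all GR LKO livers above all WT livers (log2 fold change 3.23, standard error 0.45, adjusted p = 0.0412, edgeR quasi-likelihood test, Benjamini-Hochberg). *Slc22a27* was also the called member of the amino acid and solute transporter list (35 tested, 1 higher and 0 lower by edgeR, 4 and 2 by DESeq2, 7 and 4 at an unadjusted p under 0.05, median -0.09, and -0.04 without GR LKO replicate 1). *Cyp2a4* and *Slc22a27* have close copies (*Cyp2a5*; other Slc22a genes), between which Salmon divides shared reads, so their levels are uncertain to that extent. Without 1 library, the test was no longer passed by *Cyp2a4* (WT replicates 1, 2, 3 and 4, GR LKO replicate 2) and *Slc22a27* (WT replicates 1, 2 and 4, GR LKO replicates 1, 2 and 3), where the edgeR quasi-likelihood test (Benjamini-Hochberg) gave adjusted p between 0.0670 and 0.141.

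The list median of male-biased genes was below 0 in every GR LKO liver and lowest in GR LKO replicate 1, with no test of the list as a whole. Of 41 tested, 0 were called higher and 1 lower, 2 were higher and 13 lower at an unadjusted p under 0.05, DESeq2 called 2 higher and 9 lower, and the median log2 fold change was -0.69. The list medians of GR LKO replicates 1, 2 and 3 were -1.59, -0.36 and -0.39, and without GR LKO replicate 1 the median of the list was -0.33, with 6 higher and 17 lower at an unadjusted p under 0.05. Many members are Mup genes, close copies between which Salmon divides shared reads, so their single levels are uncertain. *Mup7* had 171, 11950 and 10724 CPM in the GR LKO livers (log2 fold change -1.66). *Mup17* and *Mup19* were above 0 (0.64 and 0.82), the other tested Mup genes of the list below 0, and none was called. The called member of the list was *Scara5*, which was lost without WT replicate 2 (adjusted p = 0.0529) or GR LKO replicate 2 (adjusted p = 0.0772, edgeR quasi-likelihood test, Benjamini-Hochberg). *Egfr*, the epidermal growth factor receptor, singled out after its values were seen, had 622, 999, 815 and 1013 CPM in the WT livers and 201, 163 and 356 CPM in the GR LKO livers. All GR LKO livers were well below the WT livers, yet the test was missed (log2 fold change -1.84, standard error 0.30, adjusted p = 0.0583, edgeR quasi-likelihood test, Benjamini-Hochberg).

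The list median of lipid synthesis genes was above 0 in every GR LKO liver, and that of lipid oxidation genes in GR LKO replicates 2 and 3. Neither list was tested as a whole. Of 36 tested genes of fatty acid and triglyceride synthesis, 1 was called higher and 0 lower, 15 were higher and 0 lower at an unadjusted p under 0.05, DESeq2 called 9 higher, and the median log2 fold change was 0.36 (0.30 without GR LKO replicate 1). Of 44 genes of fatty acid oxidation and PPARalpha targets, 1 was called higher and 0 lower, 11 were higher and 1 lower at an unadjusted p under 0.05, DESeq2 called 6 higher, and the median was 0.24. GR LKO replicate 1 went the other way, with list medians of -0.12, 0.53 and 0.26 in GR LKO replicates 1, 2 and 3. Without it the median was 0.36 and 20 were higher at an unadjusted p under 0.05. The called member of both lists was *Cidec*, a lipid droplet protein that promotes droplet growth. It had 0.655, 1.51, 2.01 and 0.753 CPM in the WT livers and 16.7, 9.20 and 7.55 CPM in the GR LKO livers, highest in GR LKO replicate 1 and without overlap (log2 fold change 3.17, standard error 0.43, adjusted p = 0.0380, edgeR quasi-likelihood test, Benjamini-Hochberg). *Cidec* is also an adipocyte marker. The 7 adipocyte markers summed to 3117, 3522, 4186 and 2501 CPM in WT and 2955, 8797 and 6415 CPM in GR LKO livers, where *Car3*, which hepatocytes also make, was the most abundant gene, and all 3 tested markers were higher at an unadjusted p under 0.05. The defining markers *Plin1* and *Lep* were at 0 in all 7 libraries and *Adipoq* in all but WT replicate 3, at 0.155 CPM. As stated above, a 0 in the deposited table does not show that a cell type was absent. *Elovl5*, a fatty acid elongase singled out after its values were seen, had 413, 425, 642 and 361 CPM in the WT livers and 1296, 1053 and 960.2 CPM in the GR LKO livers. Each GR LKO liver was above each WT liver, but the test was missed (log2 fold change 1.27, adjusted p = 0.0585, edgeR quasi-likelihood test, Benjamini-Hochberg). The calls that ended with 1 library left out were those of *Cidec* (WT replicates 1, 2 and 4, GR LKO replicates 1, 2 and 3), where the edgeR quasi-likelihood test (Benjamini-Hochberg) gave adjusted p between 0.0620 and 0.107.

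Drug metabolism enzymes clear drugs and steroids. Of 77 tested, 0 were called higher and 1 lower, 8 were higher and 13 lower at an unadjusted p under 0.05, and DESeq2 called 6 higher and 7 lower. Without GR LKO replicate 1 the balance turned: 1 was called higher and 0 lower, and 18 were higher and 8 lower at an unadjusted p under 0.05. The median was -0.04 (0.07 without GR LKO replicate 1, whose own list median was -0.41, against 0.06 and 0.06 in the others). *Fmo5*, a flavin monooxygenase of hepatocytes, had 1303, 1046, 1152 and 1034 CPM in the WT livers and 723, 661 and 646 CPM in the GR LKO livers. Every WT liver was above every GR LKO liver (log2 fold change -0.74, standard error 0.11, adjusted p = 0.0470, edgeR quasi-likelihood test, Benjamini-Hochberg). Of 30 antioxidant and NRF2 target genes edgeR called 0, with 8 higher and 1 lower at an unadjusted p under 0.05, while DESeq2 called 2 higher and 1 lower; their median was 0.21 (0.15 without GR LKO replicate 1). *Gclc*, the catalytic subunit of the first enzyme of glutathione synthesis, had 337, 322, 306 and 269.6 CPM in the WT livers and 429, 360.3 and 369 CPM in the GR LKO livers with no overlap but did not pass the test (adjusted p = 0.299, edgeR quasi-likelihood test, Benjamini-Hochberg). The quinone reductase *Nqo1* had 3.44, 3.62, 4.57 and 4.43 CPM in the WT livers and 6.75, 3.54 and 5.86 CPM in the GR LKO livers, which overlapped. Single libraries mattered for *Fmo5* (WT replicates 1, 2, 3 and 4, GR LKO replicates 1, 2 and 3), where the edgeR quasi-likelihood test (Benjamini-Hochberg) gave adjusted p between 0.0537 and 0.162.

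Of 79 acute phase, complement and coagulation genes, 0 were called higher and 2 lower, 6 were higher and 17 lower at an unadjusted p under 0.05, DESeq2 called 2 higher and 10 lower, and the median was -0.18 (-0.13 without GR LKO replicate 1). Without that library edgeR called 0 higher and 4 lower. *Itih3*, a heavy chain of the inter-alpha-trypsin inhibitor of plasma, had 494, 464, 489 and 454 CPM in the WT livers and 326, 315 and 319 CPM in the GR LKO livers. Both groups were tight and apart (log2 fold change -0.57, standard error 0.07, adjusted p = 0.0348, edgeR quasi-likelihood test, Benjamini-Hochberg). *Serpina3k*, an abundant secreted protease inhibitor, had 14374, 12916, 11414 and 15026 CPM in the WT livers and 4625, 6142 and 6942 CPM in the GR LKO livers. It was lowest in GR LKO replicate 1, and all GR LKO livers lay below the WT livers (log2 fold change -1.18, standard error 0.18, adjusted p = 0.0444, edgeR quasi-likelihood test, Benjamini-Hochberg). The Serpina3 genes are near-identical neighbours, so reads shared among them are divided by Salmon and the single level is uncertain. With 1 library fewer, the threshold was missed by *Itih3* (WT replicates 1, 2, 3 and 4, GR LKO replicates 2 and 3) and *Serpina3k* (WT replicates 1, 2, 3 and 4, GR LKO replicates 2 and 3), where the edgeR quasi-likelihood test (Benjamini-Hochberg) gave adjusted p between 0.0703 and 0.143. *Serpina3k* also missed the threshold with no low-count filter (adjusted p = 0.0520, edgeR quasi-likelihood test, Benjamini-Hochberg).

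Genes of glucose and amino acid metabolism include well known GR-driven genes of liver. Of 33 gluconeogenesis and glycolysis genes edgeR called 0, beside 0.42% of all genes, with 1 higher and 9 lower at an unadjusted p under 0.05, and DESeq2 called 5 lower; the median log2 fold change was -0.16 (-0.17 without GR LKO replicate 1). *Pck1*, the enzyme that commits oxaloacetate to glucose, had 2151, 1399, 173 and 1807 CPM in the WT livers and 1202, 321 and 518 CPM in the GR LKO livers. WT replicate 3 was far below the other WT livers and below every GR LKO liver, so the groups overlapped (log2 fold change -1.01, standard error 0.77, and -1.72 without GR LKO replicate 1). *G6pc*, which releases free glucose, had 338, 497, 192 and 486 CPM in the WT livers and 219, 292 and 296 CPM in the GR LKO livers, and the genotypes overlapped. Among genes singled out after their values were seen, *Slc37a4*, the glucose 6-phosphate transporter, had 129.9, 101, 103 and 88.3 CPM in the WT livers and 39.8, 60.3 and 47.4 CPM in the GR LKO livers. *Pklr*, the pyruvate kinase of liver, had 321, 280.0, 323 and 239 CPM in the WT livers and 169.5, 128 and 176 CPM in the GR LKO livers. Neither overlapped between genotypes, and both missed the threshold (log2 fold changes -1.10 and -0.88, adjusted p = 0.0506 and 0.0621, edgeR quasi-likelihood test, Benjamini-Hochberg). *Gckr*, singled out in the same way, had 1.88, 4.73, 1.32 and 3.01 CPM in the WT livers and 0 in every GR LKO liver. It also missed the threshold (adjusted p = 0.0585, edgeR quasi-likelihood test, Benjamini-Hochberg). As for *Gpam*, *Pck2* and *Ndst2*, a 0 in the deposited table does not show that the *Gckr* transcript was absent. Of 16 glycogen genes edgeR and DESeq2 called 0, 0 were higher and 2 lower at an unadjusted p under 0.05, and the median was 0.04 (0.00 without GR LKO replicate 1). Glycogen synthase (*Gys2*) had 130.2, 119.6, 147 and 128 CPM in the WT livers and 111, 131 and 123 CPM in the GR LKO livers. Glycogen phosphorylase (*Pygl*) had 575, 546, 501 and 451 CPM in the WT livers and 327, 393 and 457 CPM in the GR LKO livers, again with overlap in both genes. Of 56 genes of amino acid catabolism and the urea cycle edgeR called 0, with 3 higher and 8 lower at an unadjusted p under 0.05, and DESeq2 called 2 higher and 3 lower; the median was -0.02 (-0.03 without GR LKO replicate 1). *Tat*, the tyrosine aminotransferase long used to read out glucocorticoid action in liver, had 2396, 2051, 1588 and 2037 CPM in the WT livers and 2482, 1602 and 1670.4 CPM in the GR LKO livers, with the groups overlapping (log2 fold change -0.07, standard error 0.20). *Tdo2*, which opens tryptophan breakdown, had 1109, 852, 935 and 824 CPM in the WT livers and 642, 972 and 801 CPM in the GR LKO livers. *Cps1*, the entry enzyme of the urea cycle, had 5888, 4916, 5333 and 4917 CPM in the WT livers and 4035, 3752 and 4673 CPM in the GR LKO livers. Neither passed the test, and *Cps1* was lower at an unadjusted p of 0.0276 with no overlap (log2 fold changes -0.20 and -0.34).

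Bile acids are made from cholesterol in hepatocytes. Of 30 bile acid genes edgeR called 0, 2 were higher and 5 lower at an unadjusted p under 0.05, DESeq2 called 2 lower, and the median was -0.18 (-0.06 without GR LKO replicate 1). *Cyp7a1*, the rate-limiting enzyme of bile acid synthesis, had 249, 127, 322 and 276 CPM in the WT livers and 80.5, 239 and 231 CPM in the GR LKO livers, lowest in GR LKO replicate 1. *Cyp8b1*, which sets the share of cholic acid, had 521, 498, 539 and 439 CPM in the WT livers and 147, 556 and 536 CPM in the GR LKO livers. The bile acid uptake carrier *Slc10a1* had 403, 403, 455 and 377 CPM in the WT livers and 212, 390.1 and 332 CPM in the GR LKO livers. All of these overlapped or missed the test (log2 fold changes -0.41, -0.27 and -0.39). With each library left out, *Cyp7a1* lay between -0.648 and -0.055 and *Slc10a1* between -0.592 and -0.184. *Cyp8b1* lay between -0.549 and 0.129, so its direction rested on single libraries. *Cyp7b1*, of the alternative route to bile acids, had 527, 580.4, 246 and 586 CPM in the WT livers and 97.0, 184 and 211 CPM in the GR LKO livers, and *Cyp2c70*, which makes muricholic acids, had 955, 903, 453 and 848 CPM in the WT livers and 217, 342 and 394 CPM in the GR LKO livers. Both, singled out after their values were seen, were lower in all GR LKO livers but missed the threshold (log2 fold changes -1.56 and -1.31, adjusted p = 0.160 and 0.147, edgeR quasi-likelihood test, Benjamini-Hochberg). Of 31 cholesterol synthesis and uptake genes edgeR and DESeq2 called 0, with 2 higher and 1 lower at an unadjusted p under 0.05 and a median of -0.04 (-0.02 without GR LKO replicate 1).

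Hepatocytes near the central vein and near the portal vein express different genes. Of 24 pericentral genes edgeR called 0, 0 were higher and 10 lower at an unadjusted p under 0.05, and DESeq2 called 4 lower. The median was -0.44, and -0.14 without GR LKO replicate 1, in which the list median was -0.67 against -0.14 and -0.13 in GR LKO replicates 2 and 3. Without it 4 were higher and 8 lower at an unadjusted p under 0.05. *Glul*, glutamine synthetase of the cells at the central vein, had 911, 955, 864 and 1266 CPM in the WT livers and 329, 702 and 624 CPM in the GR LKO livers. The groups did not overlap, with GR LKO replicate 1 the lowest, and the test was missed (log2 fold change -0.86, adjusted p = 0.275, edgeR quasi-likelihood test, Benjamini-Hochberg). *Cyp2e1*, an ethanol-metabolizing P450, had 4879, 4578, 5158 and 5493 CPM in the WT livers and 2067, 5984 and 4837 CPM in the GR LKO livers, low only in GR LKO replicate 1. Of 19 periportal genes edgeR called 0, 1 were higher and 4 lower at an unadjusted p under 0.05, DESeq2 called 1 higher and 1 lower, and the median was -0.02 (-0.14 without GR LKO replicate 1). Without that library edgeR called 1 higher and 1 lower of 20. The higher gene, *Hsd17b6*, was tested only then, so the set of genes changed along with the library. *Sds*, serine dehydratase, had 198, 144, 144 and 105 CPM in the WT livers and 287, 119 and 129 CPM in the GR LKO livers. *Hal*, histidase, had 586, 465, 525 and 275 CPM in the WT livers and 483, 446 and 438 CPM in the GR LKO livers, with overlap in both.

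Core clock genes drive daily rhythms in liver. Of 23 tested edgeR and DESeq2 called 0, 2 were higher and 2 lower at an unadjusted p under 0.05, and the median was 0.02 (0.03 without GR LKO replicate 1). *Arntl* (BMAL1) had 14.1, 25.9, 18.7 and 22.9 CPM in the WT livers and 24.8, 26.1 and 30.4 CPM in the GR LKO livers. *Per2* had 35.8, 47.5, 72.8 and 55.6 CPM in the WT livers and 35.0, 47.6 and 36.1 CPM in the GR LKO livers. *Nr1d1* (REV-ERBalpha) had 3.52, 3.35, 0.929 and 2.43 CPM in the WT livers and 3.11, 2.33 and 2.31 CPM in the GR LKO livers. The values overlapped for each of them. Of 36 unfolded protein and heat shock genes edgeR called 0, 1 were higher and 4 lower at an unadjusted p under 0.05, DESeq2 called 1 lower, and the median was -0.02 (-0.03 without GR LKO replicate 1). The chaperone *Hspa5* had 636, 759.8, 743 and 782 CPM in the WT livers and 769, 711 and 572 CPM in the GR LKO livers. Heat-inducible *Hspa1b* had 11.9, 13.4, 8.28 and 9.04 CPM in the WT livers and 6.35, 7.99 and 10.04 CPM in the GR LKO livers, again with overlap. Of 36 interferon-stimulated genes edgeR and DESeq2 called 0, with 1 higher and 0 lower at an unadjusted p under 0.05 and a median of -0.04 (-0.13 without GR LKO replicate 1). *Isg15*, a ubiquitin-like protein, had 3.93, 3.42, 3.56 and 5.61 CPM in the WT livers and 3.31, 5.46 and 4.44 CPM in the GR LKO livers. *Ifit1*, which binds viral RNA, had 4.09, 3.62, 4.34 and 7.45 CPM in the WT livers and 4.59, 5.46 and 4.09 CPM in the GR LKO livers, and both overlapped.

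**Figure D2:**
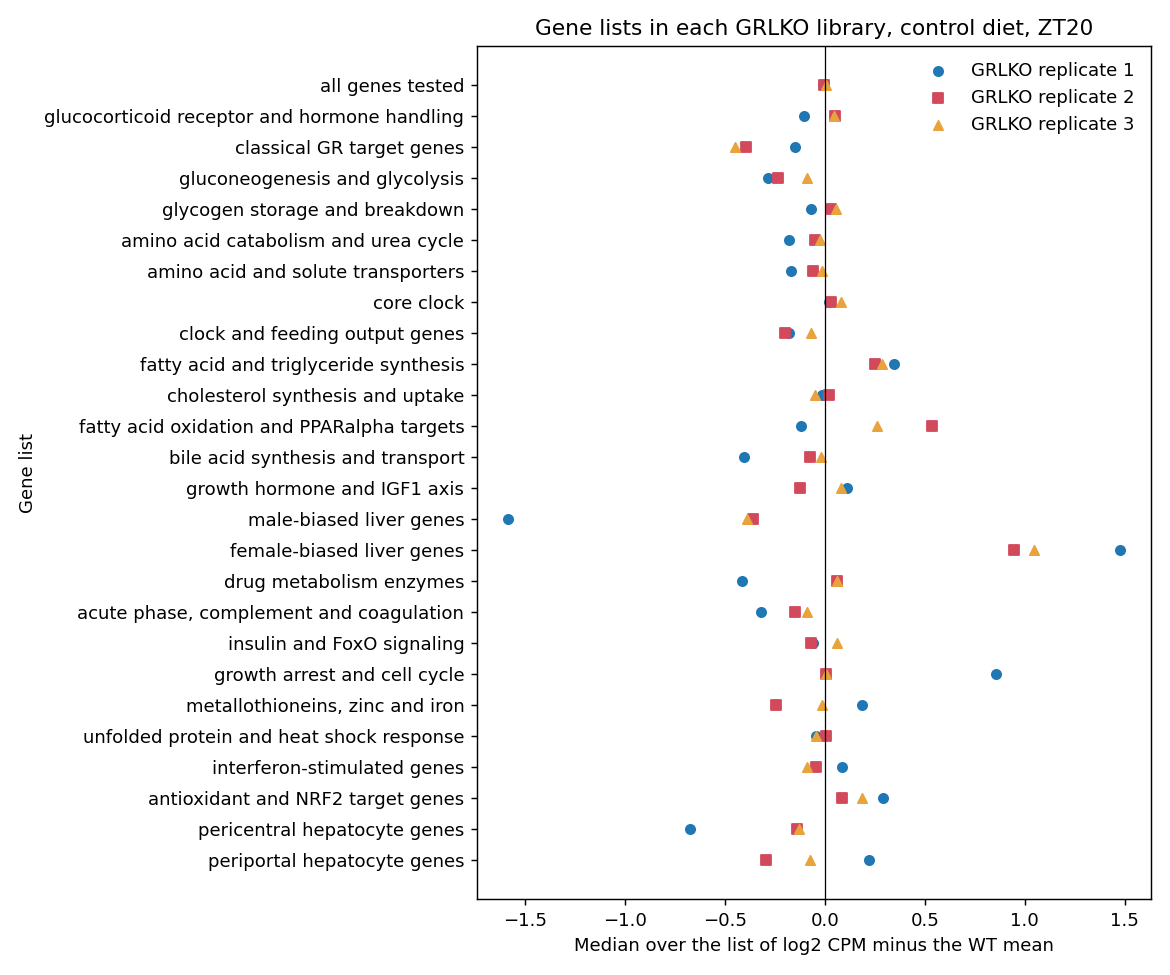
Median over each gene list of log2 CPM minus the WT mean, in each GR LKO library at ZT20 on control diet; circles are GR LKO replicate 1, squares replicate 2 and triangles replicate 3, and the vertical line marks 0. GR LKO replicate 1 lies apart for male-biased genes (-1.59 against -0.36 and -0.39), growth arrest (0.86) and pericentral genes (-0.67).

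The 50 genes were then followed in comparisons that share no library with the one at ZT20 on control diet. At ZT16 on control diet (4 WT and 3 GR LKO livers) 232 of 11723 genes were called (1.98%), at ZT12 (4 and 4) 238 of 11428 (2.08%), and at ZT20 on caloric restriction (3 and 3) 178 of 12076 (1.47%). All 50 genes had the same direction at ZT16, 44 of 50 at ZT12, and 41 of the 49 tested under caloric restriction, while over all genes tested in both comparisons the share was 62.3%, 60.02% and 63.6%. Called in both were 26 genes with ZT16 (52% of the ZT20 genes, 11.2% of the ZT16 genes), 25 with ZT12 (50% and 10.5%) and 21 with caloric restriction (42% and 11.8%). Of the 50, 14 were called in all 4 comparisons and 16 at ZT20 on control diet alone. *Nr3c1* had log2 fold changes of -1.82, -1.98 and -1.82 at ZT16, at ZT12 and under caloric restriction, and *Eif4ebp3* -4.22, -3.72 and -2.79. These counts also rested on single livers. At ZT16 they were 147, 93 and 108 without WT replicates 1, 2 and 4 and 104, 84 and 88 without GR LKO replicates 1, 2 and 3. At ZT12 they were 137 and 141 without WT replicates 2 and 3 and 144 without GR LKO replicate 1. Under caloric restriction they were 18, 22 and 16 without WT replicates 1, 2 and 3 and 82 without GR LKO replicate 2.

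Whether the genotype effect at ZT20 differed from that at another time or diet was tested as an interaction. Against ZT16 edgeR called 0 of 12292 genes (0%), with 713 at an unadjusted p under 0.05, and DESeq2 called 16. Against ZT12 edgeR called 0 of 12273 (0%), with 691, and DESeq2 55. Against caloric restriction edgeR called 0 of 12599 (0%), with 878, and DESeq2 48; the diet and the batch of libraries cannot be told apart, and the diet term takes up both. Single libraries moved these counts from 0. The ZT16 test gave 2 without ZT20 GR LKO replicate 1, and 1 without ZT20 WT replicate 4, ZT20 GR LKO replicate 3 or ZT16 GR LKO replicate 3. The ZT12 test gave 6 without ZT20 WT replicate 1, and 1 without ZT20 GR LKO replicate 1, ZT12 WT replicate 1 or ZT12 GR LKO replicate 2. The diet test gave 9 without restricted GR LKO replicate 1, and 1 without ZT20 control-diet WT replicate 2, restricted WT replicate 1 or restricted GR LKO replicates 2 or 3.

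*Cish* and *Myc* differed in level across these comparisons. At ZT16 *Cish* had 3.60, 3.62, 38.2 and 3.36 CPM in WT and 84.9, 78.7 and 68.1 CPM in GR LKO livers, where WT replicate 3 alone among the WT livers was high. At ZT12 it had 4.25, 52.7, 90.6 and 105 CPM in WT and 20.8, 61.3, 78.8 and 63.9 CPM in GR LKO livers, so that the genotypes overlapped widely. Under caloric restriction at ZT20 it had 21.0, 15.6 and 10.7 CPM in WT and 17.4, 5.03 and 12.9 CPM in GR LKO livers, overlapping between genotypes. The restricted WT livers lay above, and the restricted GR LKO livers below, those of the same genotype on control diet, across separately scaled library batches. *Myc* had 2.54, 2.37, 10.02 and 2.31 CPM in WT and 23.6, 26.6 and 19.3 CPM in GR LKO livers at ZT16, where no WT liver reached a GR LKO liver. It had 2.17, 46.5, 46.0 and 31.0 CPM in WT and 3.43, 6.83, 27.9 and 24.9 CPM in GR LKO livers at ZT12 and 3.03, 4.45 and 4.01 CPM in WT and 7.42, 2.51 and 7.19 CPM in GR LKO livers under caloric restriction, with overlap in both. The interaction with diet was 3.82 for *Cish* and 2.49 for *Myc* on the log2 scale, neither past the threshold (adjusted p = 0.247 and 0.279, edgeR quasi-likelihood test, Benjamini-Hochberg). Against ZT12 the interaction was 3.56 for *Cish* and 4.07 for *Myc*, also short of the threshold (adjusted p = 0.420 and 0.396, edgeR quasi-likelihood test, Benjamini-Hochberg). Neither gene showed its ZT20 rise at ZT12. *Fkbp5* had 51.4, 48.7, 52.4 and 51.7 CPM in WT and 12.1, 13.9 and 11.5 CPM in GR LKO livers at ZT16, with every WT liver high. Its genotype effect was not shown to differ between ZT20 and ZT16. The interaction of 1.37 was short of the threshold (adjusted p = 0.216, edgeR quasi-likelihood test, Benjamini-Hochberg).

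Over the day on control diet, now on 1 scaling of the 42 libraries, 19 to 27 of the 27 rising genes had a higher GR LKO than WT mean at each time other than ZT20, at which they were chosen, and 18 to 23 of the 23 falling genes a lower mean. *Eif4ebp3* in WT livers averaged 10.3 CPM at ZT8, 69.6 at ZT12, 88.1 at ZT16 and 45.1 at ZT20, and 3.75, 5.29, 4.73 and 2.55 CPM in GR LKO livers. *Fkbp5* averaged 72.6, 52.4 and 17.95 CPM in WT livers at ZT12, ZT16 and ZT20, and 14.9, 12.9 and 11.3 CPM in GR LKO livers. Among these 3 times, the group means of the genotypes were closest at ZT20. *Cish* averaged 65.1, 12.5 and 5.19 CPM in WT and 58.3, 79.4 and 54.8 CPM in GR LKO livers at the same times. By these means WT levels were high at ZT12 only among the 3 times, while GR LKO levels were high at all of them. Single WT livers departed from their group mean at ZT12 and ZT16, as given above. These profiles are a description and were not tested for rhythm.

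**Figure D3:**
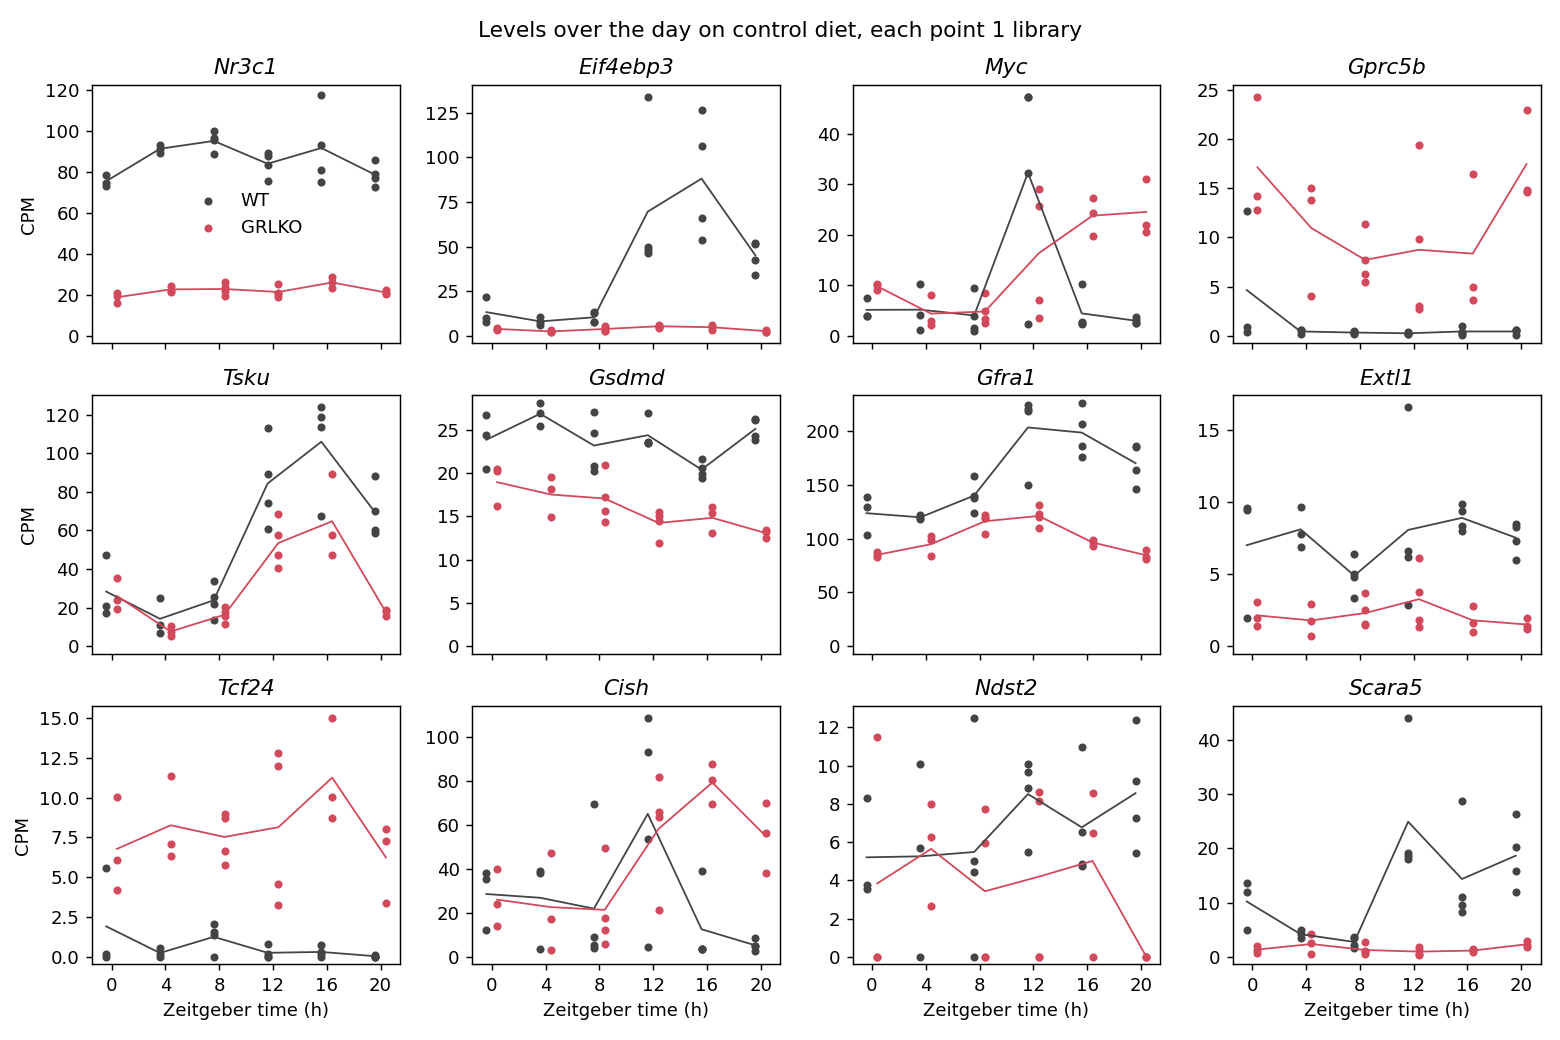
CPM of the 12 named genes with the smallest p at ZT20, at 6 zeitgeber times on control diet, in WT (grey) and GR LKO (red) livers. Each point is 1 library and lines join group means; the genotypes are drawn slightly apart in time, and WT and GR LKO values of *Cish* at ZT20 average 5.19 and 54.8 CPM.

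Promoters, taken from RefSeq (GRCm38.p6) as 250 bases before to 50 after each annotated start, were searched on both strands for motifs of GR and STAT5. Of the 50 genes 35 had a promoter entry and 15 did not. The core of the palindromic GR motif, ACANNNTGT, was in 6.85% of 32851 promoters and in 4 of the 35 (11.4%), those of *Bche*, *Fmn1*, *Foxa2* and *Tango2*. The STAT motif TTCNNNGAA was in 8.30% of all promoters and in 3 of the 35 (8.57%), *Cish*, *Dnajc7* and *Esr1*, a share close to that of all promoters. The *Cish* stretch is shown because *Cish* is a known STAT5 target: its 2 motif matches, in capitals, lie at bases 1 to 20 from the annotated start, on the plus strand at chr9:107296654-107296683.
*Cish*: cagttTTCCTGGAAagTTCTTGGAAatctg
A match is a description of the letters and says nothing of binding, and genes without one in this window may hold it elsewhere.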

How the data were processed

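Male mouse liver was profiled by poly(A) RNA-seq (TruSeq v2, 1 μg RNA). Per the labels, the authors checked reads with FastQC and MultiQC and quantified them with Salmon; they deposited estimated counts per gene, not normalized, and name DESeq2 for their tests. The build mm10 is listed without a role, and the annotation release is not given in the sources used here. Of 27654 gene IDs, 27244 matched a symbol; the others held 0.096% of the counts at ZT20 and were kept. No column was left unmatched.

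Estimated counts were rounded and tested in R 4.3.3 with edgeR 4.0.16 (TMM, filterByExpr at a minimum count of 10, quasi-likelihood F test, Benjamini-Hochberg over all genes tested, called under 0.05), each comparison on its own libraries; log2 fold changes are GR LKO over WT. Scripts were tested on simulated data. Alternatives were DESeq2 1.42.0, RLE scaling, no filter, a minimum count of 50, the replicate number as a block, 1 fit of all control-diet libraries, and each library left out; those for the other times and diet, list medians without GR LKO replicate 1 and over genes expressed in WT livers, were added after seeing the data. The GR motif core ACANNNTGT replaced longer forms searched first, which no promoter of a called gene held. No 2 libraries of a genotype agreed within sampling noise (lowest chi-square per degree of freedom 12.3 over 9 pairs). The labels do not name the animal behind each library, so p-values measure the spread between these samples. Intervals and floors cover counting error only.

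Named genes are *Nr3c1*, the 12 largest rises and 12 largest falls among called genes with a group mean of at least 5 CPM and no overlap, up to 4 called members per list and direction, and defining members of lists with none called, which were chosen after their values were seen. The gene lists and members were chosen with earlier results of these data known. They cover receptor and hormone handling, classical GR targets, gluconeogenesis and glycolysis, glycogen, amino acid catabolism, solute transporters, core clock, clock output, fatty acid synthesis, cholesterol, fatty acid oxidation, bile acids, the growth hormone axis, sex-biased genes, drug metabolism, acute phase, insulin and FoxO, growth arrest, metals, unfolded protein, interferon, NRF2 and liver zonation. Of the 25 lists, 2 held a member at 0 in a whole genotype, and setting it to its bound changed no median. The separate tables of other WT livers and of corticosterone treatment were not used here. Some members of the gene lists are not reported here.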

Additional observations from a re-analysis of the deposited data

Results flagged for a closer look

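In each of 64 groups of 4 WT livers the gap between the highest or lowest liver and its neighbour was divided by the range of the group, and 4 groups had 1 liver far from the others. Chance gives about 1 in 20 such groups, close to this number. For *Tcf24* the share was 1: WT replicate 2 had 0.132 CPM and the others 0. Livers tied at 0 fix this share at 1, so it says nothing about the spread of *Tcf24*. For *Gprc5b* it was 0.882, with WT replicate 1 at 0.0819 CPM below the others (0.526 to 0.586). For *Fkbp5* it was 0.854, with WT replicate 4 at 24.8 CPM above 15.2 to 16.6. For the summed lymphocyte markers it was 0.957, with WT replicate 4 at 11.9 CPM above 3.17 to 3.55. The cause was not tested for any of them.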

How the results depend on the processing

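The log2 fold change of *Nr3c1* kept its direction and its call under every alternative run, between -1.93 and -1.85 with each library left out. Of the 27 named genes that passed, *Nr3c1*, *Eif4ebp3* and *Myc* did so under all 13 alternatives, and no named gene changed sign with a call on either side. The count at ZT20 on control diet was 50 in the main setting and under RLE scaling, 61 with no filter and 65 at a minimum count of 50. It was 297 by DESeq2, 387 in 1 fit of the 42 control-diet libraries and 12 to 48 with each library left out. For ZT16, ZT12 and ZT20 under caloric restriction DESeq2 called 634, 569 and 686 genes, and leaving out each library gave 84 to 183, 137 to 199 and 16 to 194. The interactions, at 0 by edgeR, gave 16, 55 and 48 by DESeq2, and 0 to 2, 0 to 6 and 0 to 9 with each library left out. Why the counts differ between these settings was not tested. With 10057544 to 15292260 counts in a library, genes of a few CPM rest on few counts, and small differences in them are out of reach. Over members with a WT mean of at least 5 CPM, an alternative chosen after seeing the data, the median log2 fold change was 0.28 against 1.11 for female-biased genes, -0.41 against -0.20 for GR targets, 0.23 against 0.36 for fatty acid synthesis, 0.23 against 0.36 for growth arrest and 0.13 against 0.21 for NRF2 targets.

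Libraries with the same replicate number had correlations of their deviations, WT against GR LKO, of -0.00653, 0.0178 and 0.0662. Pairs with different numbers lay between -0.189 and 0.228. These values cannot show whether libraries of the same number were handled together, and the labels do not name the animals. With the replicate number as a block the count was 3 at ZT20 on control diet, 32 at ZT16, 101 at ZT12 and 76 under caloric restriction, and no interaction was called. The block leaves fewer residual degrees of freedom, and the cause of the lower counts was not tested.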

Other observations

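At ZT0 on control diet 1 WT liver, replicate 3, carried levels unlike the other WT livers at that time in several genes called at ZT20: *Gprc5b* was 12.7 CPM against 0.356 and 0.838, *Tcf24* was 5.55 against 0.178 and 0, and *Extl1* was 1.99 against 9.62 and 9.42. Its *Nr3c1*, at 74.6 CPM, was close to the other WT livers at 73.2 and 78.5 CPM. The 3 genes were singled out after their values were seen, and no test was run.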
